A study of Mus musculus with 4 samples.

Results

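NRF2, the product of Nfe2l2, is the transcription factor that sets the level of many antioxidant and detoxifying enzymes. The 10 genes described here are Nfe2l2 and 9 genes of the enzymes that it is known for, namely Gclc, Gclm, Gstm1, Txnrd1, Prdx1, Srxn1, Nqo1, Hmox1 and Sod2. They were taken by name with earlier results of these data known, so the shares set beside them below are descriptive and not a test. Every exon of theirs in the deposited values was used, which gave 94 of 226463 exons and 10 of 22823 genes.

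In unstressed cells the adaptor KEAP1 holds NRF2 in the cytoplasm and hands it to the CUL3 ubiquitin ligase for degradation. Oxidants and electrophiles modify KEAP1, NRF2 then accumulates, enters the nucleus, pairs with a small MAF protein and binds the antioxidant response element (ARE). BACH1 is a repressor that competes for the same element, above all at Hmox1. Much of this control acts on the NRF2 protein, which RNA does not measure. Melanin synthesis, which Mitf promotes, yields quinones and hydrogen peroxide, substrates that enzymes of this system handle.

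RNA-seq was done on 1 library for each of 4 conditions, and 3 libraries are described. Wild-type MEFs (mouse embryonic fibroblasts, WT MEF) were at passage 3. The Mitf knock-in MEFs were at passage 5 and were either untreated, called Dox (-), or treated with Dox for 6 days, called Dox (+). The fourth, primary mouse melanocytes (PMel) at passage 5, was not analysed here, because the values of a library were used only where the column name matched its label.

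Both knock-in libraries carry M2rtTA at ROSA26 and a Dox-responsive M-Mitf, the melanocyte isoform, at Col1a1, so the untreated cells hold every allele that the treated cells hold. They descend from 1 targeted mESC clone injected into BDF2 blastocysts, and the embryos were chimeric. A constitutive mCherry allele and puromycin resistance, which the knock-in cells also carry, served to separate them from host cells. WT MEF carry neither transgene and differ in passage as well, so genotype, culture and passage cannot be told apart. WT MEFs given Dox were not analysed, and an effect of Dox cannot be told apart from one of Mitf.

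Each gene was read at its most highly covered exon, in RPKM, that is, reads scaled to exon length and to library depth. With 1 library per condition there was no replicate check and no p-value, and the intervals given below cover counting error only. Depths of 44000000 to 45000000 aligned reads returned whole reads for 96.9% to 97.2% of the low exon values. Mitf had 1.52 RPKM in WT MEF, 30.8 RPKM in Dox (-) and 1544 RPKM in Dox (+). The labels mark only Dox (+) as induced, and Mitf was highest there. They give no order between the untreated libraries, yet Mitf was 20.2-fold higher in Dox (-) than in WT MEF. The untreated knock-in library was thus not free of Mitf RNA, and the source of this RNA was not tested. The 8 fibroblast genes listed summed to 31995 RPKM in WT MEF, 66939 RPKM in Dox (-) and 21193 RPKM in Dox (+). From Dox (-) to Dox (+), 5 of 8 were more than 2-fold lower, against 11.1% of all genes tested. Their median log2 change was -1.66, against 0.23 for all genes. Of the 8, 1 was higher, Thy1, at 2014 RPKM in Dox (-) and 3608 RPKM in Dox (+). The NRF2 genes were higher, and the part of the fibroblast shift in the results was not tested. The 10 macrophage genes listed summed to 62.4 RPKM in WT MEF, 17901 RPKM in Dox (-) and 639 RPKM in Dox (+), and 10 of 10 were highest in Dox (-). In bulk RNA, fewer cells of a type and less RNA per cell cannot be told apart.

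The ARE is short and can be read in the DNA before these genes. Promoter sequences, from 250 bases before to 50 bases after each RefSeq start on GRCm38.p6, the same build as mm10, were found for 8 of the 10 genes, in 11 promoters. Both strands were searched for the ARE core TGACNNNGC and for the E-box CACGTG that MITF and its relatives bind, and the motifs can share bases at their ends. Hmox1 and Gclc had no promoter entry and were not searched. The ARE core was present in promoters of 5 genes of the 8, and 14.0% of all 27025 genes in the table had it. Nqo1, Gstm1 and Sod2 had no match in this window. This E-box was found in 0 of the 11 promoters and in 7.15% of all 32851 promoters. The form CATGTG, which the study shows as the MITF motif upstream of TRPM1 and TYR, was not searched. A match describes letters in this window and does not show binding. The windows around the 5 matches follow, read 5′ to 3′ on the strand of the gene with the core in capitals, and they are shown because this element is where NRF2 is known to act on DNA. In 4 of the 5 the core lies on the opposite strand.

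Nfe2l2, chr2:75704875-75704913, minus strand, core from base -240: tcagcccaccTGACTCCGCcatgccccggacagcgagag
Gclm, chr3:122245403-122245451, plus strand, core from base -134: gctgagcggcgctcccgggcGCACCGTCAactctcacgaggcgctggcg
Prdx1, chr4:116685446-116685494, plus strand, core from base -133: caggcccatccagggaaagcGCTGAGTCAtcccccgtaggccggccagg
Txnrd1, chr10:82859094-82859142, plus strand, core from base -92: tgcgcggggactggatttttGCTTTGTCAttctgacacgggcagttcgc
Srxn1, chr2:152105542-152105570, plus strand, core from base 29 of the transcribed part: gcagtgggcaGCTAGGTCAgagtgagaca

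The first comparison asked how the 10 genes differed between Dox (+) and Dox (-). All 10 were higher in Dox (+), and the same was true of 62.6% of the 13300 genes above 10 RPKM in at least 1 of these libraries. More than 2-fold higher were 8 of 10, against 10.8% of all genes tested. A more than 4-fold change, which the study required of exons between MEF and melanocyte samples, was applied here to genes. It was passed by 1 of 10, Nqo1, against 1.64% of all genes. None of the 10 was lower, while 11.1% of all genes were more than 2-fold lower and 5.41% more than 4-fold lower. The median log2 change, after adding a pseudocount of 1 RPKM that understates the change of low genes, was 1.34 for the 10 genes and 0.23 for all genes tested.

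**Figure D1:**
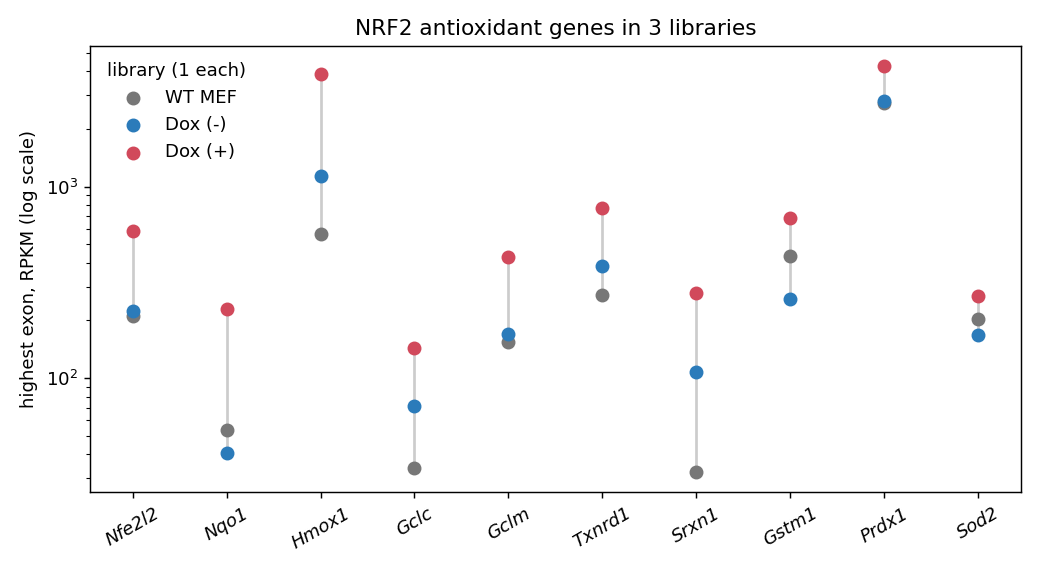
Level of each of the 10 genes, as RPKM of its highest exon on a log axis, with 1 point per library (WT MEF grey, Dox (-) blue, Dox (+) red). The Dox (+) point is the highest for all 10 genes, and the Dox (-) point is the lowest for Nqo1, Gstm1 and Sod2.

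Nfe2l2 lies on the minus strand of chromosome 2, from 75675513 to 75704641. It had 212 RPKM in WT MEF, 225 RPKM in Dox (-) and 589 RPKM in Dox (+). The untreated libraries were nearly level and Dox (+) stood above both. Its highest exon, an internal one of 90 bp, held 2334 reads in Dox (+) and 911 in Dox (-), a ratio of 2.62 (95% counting interval 2.43 to 2.83). All 5 exons were more than 2-fold higher in Dox (+).

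Glutathione is the main small thiol of the cell, and its first and limiting step is run by glutamate-cysteine ligase. Gclc encodes the catalytic subunit of this ligase and lies on chromosome 9 from 77754535 to 77794485. It had 33.8 RPKM in WT MEF, 71.6 RPKM in Dox (-) and 144 RPKM in Dox (+). The order was stepwise. Its ratio of Dox (+) to Dox (-) was 2.01 between the highest exons of the libraries, and 2.15 (1.83 to 2.52) where Dox (+) peaked, an exon with 474 and 226 reads. The interval includes the 2-fold mark. Of its 15 exons above 10 RPKM, 15 were higher in Dox (+).

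Gclm, on chromosome 3 from 122245557 to 122270732, encodes the modifier subunit of the same ligase. It had 154 RPKM in WT MEF, 170 RPKM in Dox (-) and 428 RPKM in Dox (+). Unlike Gclc, it was about level between the untreated libraries. These values come from an exon of 24 bp, on which reads that only touch it weigh heavily, with 452 reads in Dox (+) and 184 in Dox (-). Across its 13 exons the ratio of Dox (+) to Dox (-) ran from 1.53 to 3.55 with a median of 1.90, and 2 other annotated genes, Gm17494 and Gm6061, overlap it.

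Gstm1 encodes a glutathione transferase, which couples glutathione to electrophiles, and lies on the minus strand of chromosome 3 from 108012255 to 108017973. It had 433 RPKM in WT MEF, 257 RPKM in Dox (-) and 685 RPKM in Dox (+). Dox (-) was thus the lowest library and Dox (+) the highest. On the highest exon 752 reads in Dox (-) stood against 1959 in Dox (+), a ratio of 2.66 (2.45 to 2.90). Gstm1 belongs to a family of close copies, and how reads that fit several copies were treated is not given in the sources used here, so its level is uncertain. Its exons also differed in direction between the untreated libraries, with 4 of 12 higher in Dox (-) and 8 higher in WT MEF.

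The thioredoxin branch reduces protein disulfides and peroxides. Txnrd1 encodes the cytosolic thioredoxin reductase, on chromosome 10 from 82833951 to 82897712, and had 271 RPKM in WT MEF, 383 RPKM in Dox (-) and 776 RPKM in Dox (+). The levels were again stepwise. On its highest exon the reads numbered 2628 in Dox (+) and 1328 in Dox (-), a ratio of 2.02 (1.89 to 2.16) whose interval includes 2-fold, and 9 of its 15 exons were more than 2-fold higher.

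Srxn1 encodes sulfiredoxin, which restores overoxidized peroxiredoxins. On chromosome 2 from 152105516 to 152111376, it had 32.4 RPKM in WT MEF, 107 RPKM in Dox (-) and 277 RPKM in Dox (+). It had the widest spread of the 10 genes between WT MEF and Dox (+). Its last exon, of 2388 bp, held 29100 reads in Dox (+), 11505 in Dox (-) and 3487 in WT MEF, so that the ratio of Dox (+) to Dox (-), 2.59 (2.53 to 2.64), is the most precise among the 10.

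Prdx1 encodes an abundant peroxiredoxin, the enzyme that SRXN1 repairs, and lies on chromosome 4 from 116685544 to 116700822. It had 2731 RPKM in WT MEF, 2796 RPKM in Dox (-) and 4253 RPKM in Dox (+). The ratio of Dox (+) to Dox (-) was 1.52 (1.44 to 1.61), below the 2-fold mark and the smallest of the 10 between highest exons, whereas Sod2 had the smallest with length-weighted means and on the most 3′ exon. Its highest exon has only 16 bp, and the next, of 102 bp, had 2520 RPKM in Dox (+), so that its rank above Hmox1 in Dox (+) rests on the short exon. Reads may also be shared with close copies elsewhere in the genome, so its level is uncertain. All 15 exons were higher in Dox (+), by up to 2.17-fold.

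Nqo1 encodes a quinone reductase that spares cells the redox cycling of quinones, and is often used as a readout of NRF2. It lies on the minus strand of chromosome 8 from 107388225 to 107403206 and had 53.6 RPKM in WT MEF, 40.5 RPKM in Dox (-) and 228 RPKM in Dox (+). The untreated libraries were close and Dox (+) stood far above them. Its highest exon had 1024 reads in Dox (+) against 186 in Dox (-), and the ratio of 5.63 (4.81 to 6.62) was the largest of the 10, at percentile 99.0 of all genes tested. The 6 exons gave ratios between 5.32 and 6.68.

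Hmox1 encodes haem oxygenase 1, which splits haem into biliverdin, iron and carbon monoxide. On chromosome 8 from 75093621 to 75100589, it had 563 RPKM in WT MEF, 1131 RPKM in Dox (-) and 3862 RPKM in Dox (+). WT MEF was lowest and Dox (+) highest, as for Gclc, and the ratio of Dox (+) to Dox (-) was 3.41 (3.31 to 3.52), with 16992 reads against 5089. Macrophages are known to express Hmox1, and the part of the macrophage RNA of Dox (-) in its level there was not tested.

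Sod2 encodes the superoxide dismutase of mitochondria and also responds to inflammatory signals through NF-kB. It lies on chromosome 17 from 13006846 to 13040063 and had 202 RPKM in WT MEF, 167 RPKM in Dox (-) and 268 RPKM in Dox (+). The ratio of Dox (+) to Dox (-) was 1.60 (1.47 to 1.75), and 0 of its 4 exons above 10 RPKM were more than 2-fold higher. Between highest exons, Sod2 and Prdx1 were below the 2-fold mark. Gclm also fell below it, at a log2 change of 0.84, when exons under 50 bp were left out or when exons were averaged by length. With exons averaged by length Txnrd1 fell below it as well, at 0.92.

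**Figure D2:**
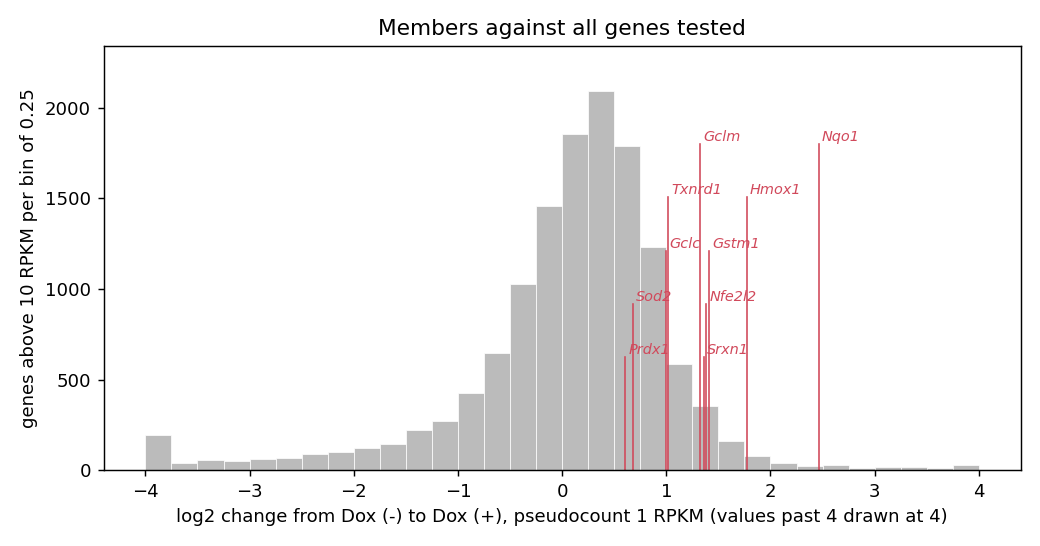
Grey bars count all 13300 genes above 10 RPKM by log2 change from Dox (-) to Dox (+), in bins of 0.25, with values past 4 drawn at 4, and red lines mark the 10 genes. All 10 lie to the right of the median of all genes at 0.23, from Prdx1 at 0.60 to Nqo1 at 2.46.

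The size of each ratio depended on the exon. Among the 10 genes the ratio of Dox (+) to Dox (-) was higher on the most 5′ exon than on the most 3′ exon in 8 of 10, and across all genes with at least 2 exons above 10 RPKM this held for 82.0% of 10953. The median difference was 0.39 on the log2 scale over all genes, so a gradient along transcripts moved with the comparison. Nfe2l2 had a ratio of 3.10 on its first exon and 2.20 on its last, and Sod2 had 1.69 and 1.20. Read on the most 3′ exon above 10 RPKM alone, all 10 genes were still higher in Dox (+), and 5 of 10 were more than 2-fold higher, namely Nfe2l2, Nqo1, Hmox1, Srxn1 and Gstm1, against 8.40% of all genes. On those exons the median log2 change was 0.96 for the 10 genes and 0.06 for all genes. The part of RNA quality in the gradient was not tested.

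**Figure D3:**
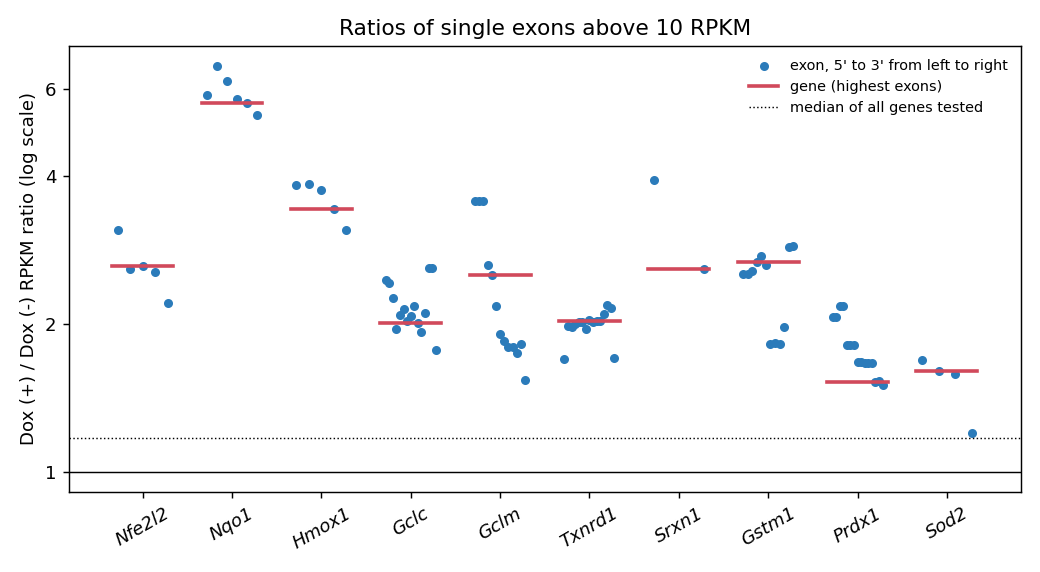
Each blue point is the ratio of Dox (+) to Dox (-) RPKM on 1 exon above 10 RPKM, on a log axis, ordered 5′ to 3′ within a gene, the red bar is the ratio between highest exons and the dotted line is the median of all genes. Every exon lies above a ratio of 1, and points tend to descend to the right in Hmox1, Gclm and Prdx1.

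The scale of the libraries matters as well. Of the 8 housekeeping genes, 6 were higher in Dox (+) (62.6% of all genes) and 3 passed the 2-fold mark (10.8% of all genes). Their ratios of Dox (+) to Dox (-) ran from 0.90 for Hprt and 0.98 for Tbp to 2.74 for Gapdh and 2.88 for Rplp0. When the libraries were rescaled so that the median ratio of all genes was 1, 10 of 10 members were still higher in Dox (+), and 6 of 10 more than 2-fold, against 6.41% of all genes. The rescaling moved the share of higher genes among all 2-fold calls from 49.4% to 31.5%. Gclc and Txnrd1 then fell below the mark, with log2 changes of 0.77 and 0.78.

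The second comparison set Dox (+) against WT MEF, a library with few macrophage reads. All 10 genes were higher in Dox (+), against 63.3% of 12935 genes tested. More than 2-fold higher were 7 of 10 (20.2% of all genes), and more than 4-fold higher were 4 of 10 (6.56% of all genes), while none was lower (8.98% of all genes were more than 2-fold lower and 3.4% more than 4-fold lower). The 4 genes were Srxn1 at 8.53-fold (8.24 to 8.84), Hmox1 at 6.86-fold (6.58 to 7.16), Nqo1 at 4.26-fold (3.70 to 4.91) and Gclc at 4.25-fold (3.46 to 5.26). The intervals of Nqo1 and Gclc include the 4-fold mark. With rescaled libraries 2 of 10 passed 4-fold, Srxn1 and Hmox1, and the share of higher genes among all 4-fold calls moved from 65.8% to 55.4%. Gstm1, Prdx1 and Sod2 stayed below 2-fold, at ratios of 1.58, 1.56 and 1.33. This comparison and the first share the Dox (+) library. The gradient along transcripts was stronger here, with the first exon above the last in 86.2% of genes, and Srxn1 had a ratio of 45.4 on its first exon, from 7 reads in WT MEF and 311 in Dox (+), against 8.53 on its last.

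The third comparison set the untreated knock-in cells against WT MEF. Here 7 of 10 genes were higher in Dox (-), against 50.6% of 13227 genes, with a median log2 change of 0.12 (0.01 over all genes). More than 2-fold higher were 3 of 10, Srxn1 at 3.30-fold (3.18 to 3.43), Gclc at 2.12-fold and Hmox1 at 2.01-fold (1.91 to 2.11), against 17.3% of all genes, and 0 of 10 passed 4-fold (8.26% of all genes). None was more than 2-fold lower (7.93% of all genes, and 1.21% more than 4-fold). Txnrd1 had a ratio of 1.42 (1.30 to 1.54). Nfe2l2, Gclm and Prdx1 had ratios of 1.06 (0.97 to 1.17), 1.11 (0.89 to 1.38) and 1.02 (0.96 to 1.09), intervals that include 1. Other exons of these genes did separate the libraries, with ratios of 1.30 on the last exon of Gclm, 0.73 on the first of Prdx1 and 0.85 on the last of Nfe2l2, and with length-weighted means over all exons Nfe2l2 and Prdx1 had the opposite sign, at log2 changes of -0.14 and -0.08. Nqo1 at 0.76 (0.62 to 0.92), Gstm1 at 0.59 (0.54 to 0.65) and Sod2 at 0.83 (0.76 to 0.91) were lower in Dox (-), and for Sod2 the last exon gave the opposite sign. The 10 genes thus did not share an order between the untreated libraries, although all 10 were highest in Dox (+).

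The control of NRF2 was read from 8 genes. Keap1, the adaptor that NRF2 escapes from, had 70.8 RPKM in WT MEF, 73.1 RPKM in Dox (-) and 105 RPKM in Dox (+). Bach1, the repressor, had 22.7 RPKM in WT MEF, 74.7 RPKM in Dox (-) and 38.0 RPKM in Dox (+). Bach1 was therefore the gene of this list that was lowest in Dox (+) relative to Dox (-), with a log2 change of -0.96, yet it was higher in Dox (+) than in WT MEF, at 1.68-fold.

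The small MAF partners moved apart. Mafg had 27.4, 77.1 and 63.2 RPKM in WT MEF, Dox (-) and Dox (+), Maff had 20.1, 43.4 and 68.5 RPKM, and Mafk had 13.5, 25.7 and 46.6 RPKM. Maff and Mafk were highest in Dox (+) and Mafg in Dox (-). Sqstm1 encodes p62, which binds KEAP1 and is itself induced by NRF2 and by lysosomal transcription factors. It was chosen after its values were seen, as the only gene of the list past 2-fold from Dox (-) to Dox (+), with a ratio of 3.18 between 8218 and 2582 RPKM.

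Beyond the 10 genes and including the control genes, the lists hold 72 genes of the same system, 69 of them above 10 RPKM in Dox (-) or Dox (+). From Dox (-) to Dox (+), 58 of 69 were higher, 15 were more than 2-fold higher and 2 more than 2-fold lower, with a median log2 change of 0.65. Of all genes tested, 62.6%, 10.8% and 11.1% were so. Past 4-fold were 2 (1.64% of all genes), the glutathione transferases Gstp1 (1140 to 5224 RPKM) and Gstp2 (378 to 2727 RPKM). More than 4-fold lower were 0 (5.41% of all genes). Gstp1 and Gstp2 are near copies and reads may be split between them. The 2 lower genes were Sod3, the extracellular superoxide dismutase, at 113 RPKM in Dox (-) and 32.9 RPKM in Dox (+), and Idh1, a cytosolic source of NADPH, at 971 and 401 RPKM.

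**Figure D4:**
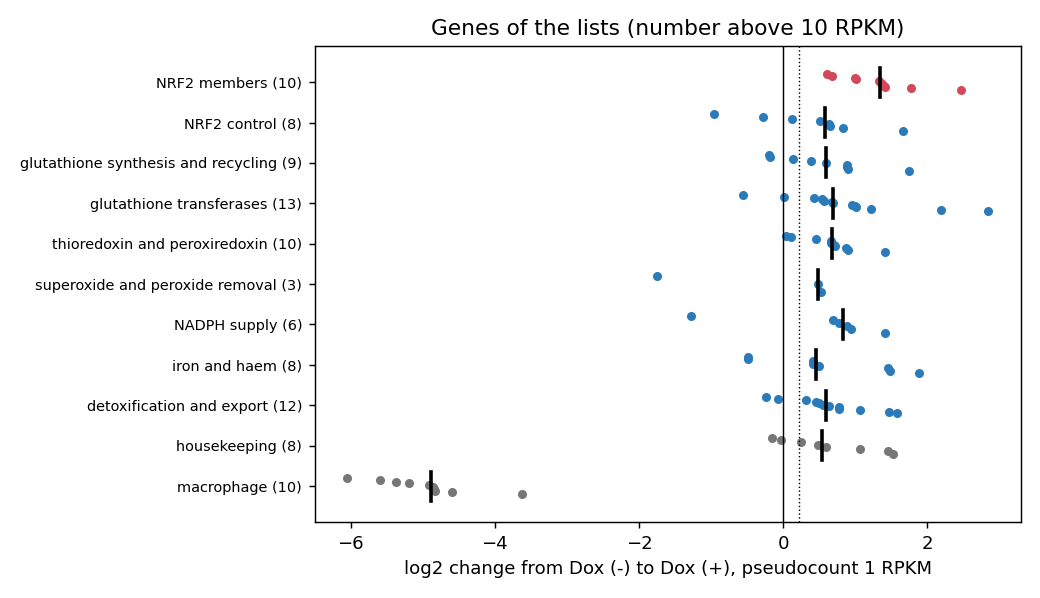
Each point is a gene above 10 RPKM, placed by its log2 change from Dox (-) to Dox (+), with the 10 genes in red, the pathway lists in blue, housekeeping and macrophage genes in grey, a black bar at each median and a dotted line at the median of all genes. The 8 pathway lists have medians between 0.46 and 0.83, the housekeeping genes 0.54 and the macrophage genes -4.88.

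From Dox (-) to Dox (+), the pathway lists did not lie clear of the housekeeping genes, whose median log2 change was 0.54. The 10 genes had 1.34, and 7 heat shock genes had 1.30. In glutathione synthesis and recycling, Dox (+) was the higher library for 7 of 9 genes, 1 of them by more than 2-fold. Slc7a11, the cystine importer that feeds glutathione synthesis, had 9.88 RPKM in WT MEF, 16.6 RPKM in Dox (-) and 14.4 RPKM in Dox (+). Gsr, which reduces oxidized glutathione, had 71.0, 37.6 and 70.7 RPKM in the same order. Slc7a11 thus did not follow Gclc and Gclm, and Gsr was lowest in Dox (-).

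Of 10 thioredoxin and peroxiredoxin genes, all 10 had a ratio of Dox (+) to Dox (-) above 1 and 1 a ratio above 2. Thioredoxin itself, Txn1, had 3476 RPKM in WT MEF, 1406 RPKM in Dox (-) and 2228 RPKM in Dox (+), and was therefore highest in WT MEF, unlike its reductase Txnrd1. Of the 6 genes that supply NADPH, 5 were higher in Dox (+). G6pdx, the first enzyme of the pentose phosphate pathway, had 280, 177 and 326 RPKM in WT MEF, Dox (-) and Dox (+).

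Of 8 genes for iron and haem, 6 were higher and 3 more than 2-fold higher, the same counts as for the 8 housekeeping genes. The ferritin light chain Ftl1 had 5283 RPKM in WT MEF, 5747 RPKM in Dox (-) and 21143 RPKM in Dox (+), and the heavy chain Fth1 had 4903, 8175 and 11580 RPKM. Ferritin stores the iron that haem oxygenase frees, and both chains had the order of Hmox1. Both chains have many processed copies in the genome, so these levels are uncertain. Of 13 glutathione transferases above 10 RPKM, 12 were higher in Dox (+) and 5 more than 2-fold, and of 12 genes for detoxification and export 10 and 3. Of the 3 genes for superoxide and peroxide removal, 2 were higher. These counts stand beside 62.6% of all genes higher and 10.8% more than 2-fold higher.

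Against WT MEF, 56 of 70 pathway genes were higher in Dox (+) (63.3% of all genes), 25 more than 2-fold (20.2%) and 5 more than 4-fold (6.56%), while 2 were more than 2-fold lower (8.98%). The median log2 change of the 70 was 0.78, and by list the medians ran from -0.26 to 1.27. For the 8 housekeeping genes it was 0.12 against WT MEF, and 0 of these were more than 2-fold higher. The count of pathway genes past 4-fold was near the share of all genes. The 5 were Osgin1 (8.65-fold), Blvrb (5.18-fold), Cbr3 (4.55-fold), Gsto1 (4.23-fold) and, barely past the mark, Ftl1, of which Blvrb reduces biliverdin, the product of HMOX1. The only gene more than 4-fold lower was Mgst2, at 41.6 RPKM in WT MEF and 1.99 RPKM in Dox (+), and it was as low in Dox (-), at 2.22 RPKM. Between Dox (-) and WT MEF 37 of 70 were higher in Dox (-) (50.6% of all genes), 9 more than 2-fold (17.3%) and 1, Sod3, more than 4-fold (8.26%), shares near or below those of all genes. More than 2-fold lower were 5 (7.93%), and 1 of these, Mgst2, was more than 4-fold lower (1.21%).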

How the data were processed

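RNA-seq libraries were prepared with a TruSeq kit, and per the labels the tools were TopHat2 2.0.10 on mm10 and bedtools. The authors counted reads per exon and deposited RPKM values, without pooling. Columns were matched to libraries by name, and 1 column without a matching label was not used. Exons were assigned to genes with GENCODE M21 (6586 of 234718 had no match), and protein coding, pseudogene and lincRNA genes were kept. The level of a gene was its highest exon RPKM. Genes above 10 RPKM in at least 1 of 2 libraries were compared, with thresholds of 4-fold and 2-fold and, for log2 changes, a pseudocount of 1 RPKM. Reads were recovered by a whole-number divisor between 20 and 80 (tolerance 0.02 reads, below 200 reads), and read ratios carry exact conditional 95% intervals. The steps were tested on simulated data. PMel comparisons were planned and not run.

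The members and lists were chosen with earlier results of these data known. Named are the 10 members, a fixed set of pathway genes (Keap1, Bach1, Mafg, Maff, Mafk, Slc7a11, Gsr, Txn1, G6pdx, Fth1, Ftl1) and those past 4-fold in Dox (+) against Dox (-). Pathway genes named beyond these, the metallothioneins, heat shock genes and selenoproteins were added after the data were seen. Python 3.11.15, pandas 2.3.3, NumPy 2.4.6, SciPy 1.17.1 and matplotlib 3.10.9 were used.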

Additional observations from a re-analysis of the deposited data

How the results depend on the processing

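No paired analysis was possible because each condition had 1 library. In the 2 comparisons with Dox (+), all 10 members stayed higher in Dox (+) under each alternative run. Thresholds and the pseudocount cannot change this direction, so only the alternatives on exons and on rescaling could have altered it. The planned comparisons with PMel and leaving out replicates were not run. For the changes listed the cause was not tested. Values are given in the order Dox (+) against Dox (-), Dox (+) against WT MEF, Dox (-) against WT MEF. At 2-fold, 8, 7 and 3 members were higher (10.8%, 20.2% and 17.3% of all genes), with 15, 25 and 9 pathway genes higher and 2, 2 and 5 lower. At 2-fold with rescaled libraries, members numbered 6, 7 and 2 (6.41%, 14.0% and 17.1% of all genes), pathway genes 11, 19 and 9 higher and 3, 4 and 5 lower. At 2-fold on the most 3′ exon, members numbered 5, 5 and 1 (8.40%, 14.9% and 14.9% of all genes), pathway genes 13, 21 and 7 higher and 2, 3 and 3 lower. At 4-fold on the most 3′ exon, 2 pathway genes were lower in the second comparison and 2 higher in the third.

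The median log2 change of the members (1.34, 1.49 and 0.12) was 1.13 and 1.29 in the first and second comparison with length-weighted means, 1.11 and 1.22 with rescaled libraries and 0.96, 1.09 and 0.25 on the most 3′ exon. Without exons under 50 bp it was 1.19 in the first. At 4-fold with rescaled libraries, 2 members were higher in the second comparison. Pathway genes higher and lower then numbered 1 and 1 in the first and 2 and 2 in the second, and 0 were higher in the third. Without an expression threshold 4 pathway genes were higher in the first and 2 lower in the third, with the same exon in both libraries 2 were higher in the third, and with length-weighted means 0. From WT MEF to Dox (-), Sod2 changed by 0.16 on the most 3′ exon, against -0.27. The alternatives on short exons, on the most 3′ exon and on 2-fold with rescaling were added after the data were seen.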

Other observations

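Other stress genes were read from lists added after the data were seen. The metallothioneins Mt1 and Mt2, which bind zinc and copper, were highest in Dox (+), at 3990 and 3272 RPKM. In WT MEF they had 946 and 586 RPKM, and in Dox (-) 1032 and 856 RPKM. Between these libraries Mt1 was close, at a ratio of 1.09, and Mt2 was 1.46-fold higher in Dox (-). From Dox (-) to Dox (+) the ratios were 3.87 and 3.82, larger than those of 9 of the 10 NRF2 genes, and the median log2 change of the 3 metallothioneins above 10 RPKM was 1.93. Mt3 was near 0 in WT MEF, at 0.337 RPKM, and similar in the knock-in libraries, at 65.0 and 69.6 RPKM for untreated and treated cells.

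For 7 of 7 heat shock genes the ratio of Dox (+) to Dox (-) was above 1 (62.6% of all genes). For 5 it was above 2 (10.8% of all genes), and their median log2 change was 1.30 (0.23 for all genes). Hspa8, a constitutive chaperone, had 3111 RPKM in WT MEF, 2241 RPKM in Dox (-) and 5535 RPKM in Dox (+). Hspa1a, an inducible chaperone, was low, with 2.84, 3.02 and 16.9 RPKM. Among the 8 selenoproteins listed, 4 had a higher level after Dox (62.6% of all genes) and 4 a lower one. The median log2 change of these 8 was -0.03. The list leaves out Txnrd1, Txnrd2, Gpx1 and Gpx4, selenoproteins held in the other lists. These were higher in Dox (+), at ratios of 2.02, 1.91, 1.31 and 3.36, so the even split depends on the choice of genes. Selenop, a secreted carrier of selenium, stood at 453 RPKM in Dox (-), against 45.7 RPKM after Dox and 81.9 RPKM in WT MEF.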
